A study of Mus musculus with 3 samples.

Results

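The interleukin-1 family was followed through single-cell transcriptomes of mouse dorsal skin as 10 genes out of the 32285 in the deposited matrices, picked by symbol. They were the agonist genes Il1a, Il1b, Il18 and Il33, the receptor antagonist Il1rn, the receptor chains Il1r1, Il1rap, Il1rl1 and Il18r1, and the decoy receptor Il1r2. Skin cells had been enriched for CD45+ immune cells with magnetic beads, and 1 droplet library per group was sequenced from the 3′ ends of transcripts. The C57Bl/6 mice were males of 8 weeks with dorsal skin in telogen, the resting phase of the hair cycle. WT_Ctrl was wild-type skin with 0 exposures to ultraviolet B (UVB) light, WT_UV was wild-type skin after 3 exposures, and RP_UV was skin after 3 exposures from Rosa26-rtTA; Tre-Ptgs2 mice, in which doxycycline switches on rat Ptgs2 (the prostaglandin-producing enzyme Cox-2) in all tissues. By the paper's account, both irradiated samples were taken at the same time point, on the day of the last exposure. The labels do not state whether the sequenced wild-type mice received doxycycline, and no unirradiated RP skin was analysed here. With 1 library per group no difference had a replicate check, and no test or p-value was computed.

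Interleukin-1 alpha and beta bind the receptor encoded by Il1r1, which recruits the accessory chain encoded by Il1rap and signals through Myd88 and IRAK kinases to NF-kappaB. The antagonist Il1rn occupies the same receptor without signalling, and Il1r2 binds the agonists but lacks a signalling domain. Il1b and Il18 are made as precursors that inflammasome caspases cut, whereas Il1a and Il33 are held in epithelial and stromal cells and released as alarms on damage. Il1rl1 (ST2) is the receptor of interleukin-33 and Il18r1 that of interleukin-18, and the skin uses the family to signal injury to leukocytes.

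All 10 genes were placed on the mm10 (GRCm38) genome through RefSeq, which gives the whole span of a gene, exons, introns and untranslated regions together. Il1b (chr2:129364569-129371164, minus strand), Il1a (chr2:129299609-129310186, minus strand) and Il1rn (chr2:24336860-24351491, plus strand) lie on chromosome 2. Il1r2 (chr1:40084692-40125230), Il1r1 (chr1:40222480-40316201), Il1rl1 (chr1:40404864-40465418) and Il18r1 (chr1:40465552-40500854) follow each other on the plus strand of chromosome 1. The remaining members were Il18 (chr9:50554700-50581841), Il33 (chr19:29925113-29960718) and Il1rap (chr16:26581509-26730128), all on the plus strand. RefSeq lists 1 start for Il1b and 3 for Il1rn, of which the upstream one is known to give the intracellular antagonist of epithelial cells and a downstream one the secreted form. Because libraries were read from the 3′ end, UMIs (unique molecular identifiers, which count each captured transcript once) could not be assigned to a start. The 250 bases before the Il1b start and before the first and the third Il1rn starts are shown because these are the agonist and antagonist genes that differed most between the libraries in macrophages. They are RefSeq GRCm38.p6 sequences at chr2:129371140-129371389 (minus strand), chr2:24336610-24336859 and chr2:24345121-24345370 (both plus strand). The Il1b window overlaps the end of the gene span given above, and distances are counted from the start that each window precedes. Capitals mark matches to the motifs described next.
Il1b: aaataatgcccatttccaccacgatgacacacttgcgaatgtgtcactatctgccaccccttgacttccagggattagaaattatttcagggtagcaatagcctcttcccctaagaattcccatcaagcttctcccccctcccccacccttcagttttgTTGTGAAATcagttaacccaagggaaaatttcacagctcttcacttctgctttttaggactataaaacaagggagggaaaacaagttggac
Il1rn, first start: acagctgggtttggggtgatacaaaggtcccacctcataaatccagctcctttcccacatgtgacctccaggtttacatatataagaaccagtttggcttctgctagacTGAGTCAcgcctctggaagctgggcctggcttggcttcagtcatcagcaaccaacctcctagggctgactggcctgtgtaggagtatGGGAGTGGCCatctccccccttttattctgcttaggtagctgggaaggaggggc
Il1rn, the third start: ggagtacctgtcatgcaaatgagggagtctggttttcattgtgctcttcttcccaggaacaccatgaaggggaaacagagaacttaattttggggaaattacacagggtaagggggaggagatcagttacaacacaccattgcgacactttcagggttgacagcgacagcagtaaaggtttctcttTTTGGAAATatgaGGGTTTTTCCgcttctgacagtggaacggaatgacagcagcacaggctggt

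Motifs were searched on both strands as GGG and CC around any 5 bases (NF-kappaB-type), TTNNGNAAT (C/EBP-type) and TGANTCA (AP-1-type). Among the 32851 RefSeq upstream windows of this length, 45.8% held the first, 10.2% the second and 6.75% the third. The Il1b window held a C/EBP-type match 91 bases before the start. The window of the first Il1rn start held an NF-kappaB-type match at 54 bases and an AP-1-type match at 141 bases, and that of the third start held an NF-kappaB-type match at 51 bases and a C/EBP-type match at 64 bases. Il1a had an AP-1-type match at 12 bases, and the Il1r2 window held none of these letter strings. A match is a string of letters, and no binding was measured.

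The labels place WT_Ctrl and RP_UV on one flow cell and WT_UV on another, so that sequencing run and group cannot be told apart wherever WT_UV is compared. WT_UV cells were deeper, with a median of 10557 UMIs against 4246 and 3774, and the pairs of libraries shared 8 to 11 cell barcodes. Levels are therefore given as UMIs per 1000000 UMIs of a cell class in a library (CPM), with exact Poisson 95% intervals that cover counting error only. Since each transcript is counted once whatever its length, levels of different genes are set side by side without scaling by length. Class names rest on marker genes and are to be read as X-like. Clusters were made without the family and its pathway genes. Cells without a clear class made up 11.9% of WT_Ctrl, 21.8% of WT_UV and 11.3% of RP_UV. The enrichment sets how many cells of each class a library holds, so class sizes describe these libraries and not the skin. Ptgs2, which the RP mice overexpress, measured 14.4 CPM in WT_Ctrl, 117 CPM in WT_UV and 486 CPM in RP_UV over all kept cells, where rat transcripts that align to the mouse gene cannot be told from mouse ones.

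Il1b was the most abundant member in each library, with 352 CPM in WT_Ctrl, 721 CPM in WT_UV and 1515 CPM in RP_UV over all kept cells, but different classes held it. In WT_Ctrl, dendritic cells held 60.2% of its UMIs, macrophages 4.08% and neutrophils 1.92%. In WT_UV, dendritic cells held 30.1%, macrophages 26.7% and neutrophils 10.8%. In RP_UV, neutrophils alone held 61.7% (Wilson 95% interval, 61.3 to 62.2%), while dendritic cells held 7.74% and macrophages 4.12%. Kept neutrophils numbered 20 for WT_Ctrl, 58 for WT_UV and 571 for RP_UV, or 0.377%, 1.11% and 9.41% of all kept cells. The unnamed cells held 27.6%, 28.2% and 20.4% in the same order, and in RP_UV they included 2 clusters led by S100a8 and S100a9, the calprotectin genes of neutrophils, with 6364 and 8412 CPM of Il1b.

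**Figure D1:**
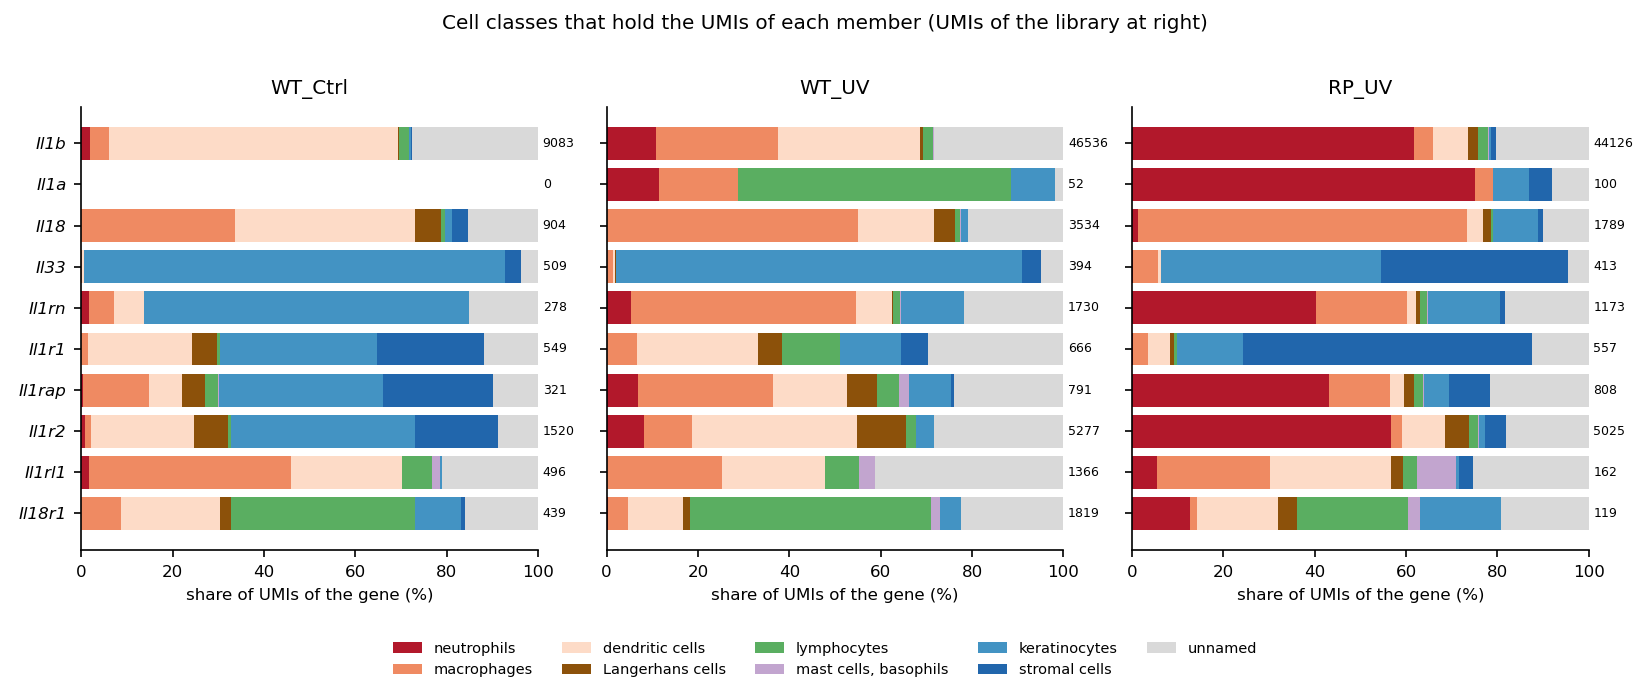
Share of the UMIs of each member (percent, x axis) held by each cell class in WT_Ctrl, WT_UV and RP_UV; the number right of a bar is the UMIs of that gene over all kept cells, dendritic cells include mature ones and lymphocytes include the Il13-led cluster. The Il1b bar is mostly dendritic cells in WT_Ctrl (60.2%) and mostly neutrophils in RP_UV (61.7%).

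Neutrophils had the highest Il1b level of all classes. It was 6359 CPM in WT_Ctrl (5449.6 to 7378), 27595 CPM in WT_UV (26836 to 28369) and 29561 CPM in RP_UV (29211 to 29915), and Il1b UMIs were seen in 56 of 58 neutrophils of WT_UV and 569 of 571 of RP_UV. The RP_UV level was 1.07-fold that of WT_UV (exact conditional 95% interval, 1.04 to 1.10), so the irradiated libraries differed far more in the number of neutrophils than in their Il1b level. The WT_Ctrl neutrophils were 20 cells of low depth and their values are given without folds. In 1 cluster that held cells of all libraries (led by S100a9, S100a8 and Slpi), Il1b measured 6211 CPM in WT_Ctrl, 27679.8 CPM in WT_UV and 27632 CPM in RP_UV.

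In macrophages, Il1b measured 48.7 CPM in WT_Ctrl (43.9 to 54.0), 444 CPM in WT_UV (436 to 452) and 159 CPM in RP_UV (152 to 166). The WT_UV level was 9.11-fold that of WT_Ctrl (8.22 to 10.1), and the RP_UV level was 2.80 times lower than that of WT_UV (2.66 to 2.94) and 3.26-fold that of WT_Ctrl (2.91 to 3.65). The first of these differences was at least 2-fold under every alternative processing (log2 1.81 to 4.99). The second was below 2-fold with classes taken from the marker UMIs of each cell (log2 -0.13) and with every cluster named by its best panel (-0.58). A minority of macrophages carried it: an Il1b UMI was found in 82 of 1928 cells of WT_Ctrl, 773 of 2256 of WT_UV and 241 of 2159 of RP_UV. After each cell had been thinned to 2000 UMIs, the shares were 3.10%, 22.5% and 7.24%. Fibroblasts, which served as a class that should lack the gene, gave 0.746% in WT_Ctrl and 1.86% in RP_UV at the same depth, and 0 of 37 stromal cells in WT_UV, which allows a share of up to 8.11%. Before thinning, macrophage shares were 4.25%, 34.3% and 11.2%, at median depths of 3844.5, 11254.5 and 4667 UMIs, against 1.16% of fibroblasts in WT_Ctrl and 3.47% in RP_UV, at 3277 and 2322 UMIs. The tenth of macrophages with most Il1b held 76.2% of the Il1b UMIs of the class in WT_UV and 98.6% in RP_UV.

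Most macrophage Il1b of WT_UV lay in 2 clusters. One, of 192 cells led by Thbs1, Vcan and Nrg1, measured 2505 CPM (2444 to 2566), and the other, of 280 cells led by Nrg1, Osm and Cxcr4, measured 1346 CPM (1305 to 1388). They held 6504 and 4113 of the 12419 Il1b UMIs of the class. Without the Thbs1-led cluster, a choice made after seeing the data, RP_UV macrophages lay 0.82 below those of WT_UV on the log2 scale, in place of 1.48. Another cluster, with Thbs1 and Vcan among its leading genes, held 17 cells of WT_UV and 127 of RP_UV. Macrophage was its best panel, but it stayed unnamed under the marker rule, so its cells are outside the macrophage levels given here. Its part in the difference was not tested. A monocyte-like cluster led by Plac8 and Ly6c2 measured 609 CPM in WT_Ctrl and 606 CPM in WT_UV, a difference within the counting intervals. In RP_UV the highest cluster was led by the interferon-response genes Ifit2, Ifit3 and Cxcl10, with 1963 CPM in 43 cells against 379.8 CPM in 64 cells of WT_UV. S100a8 in that cluster measured 293 CPM in RP_UV and 6.04 CPM in WT_UV. The largest RP_UV clusters, led by Lyve1, Fcna and Saa3 (33.3% of macrophages) and by Ccl12, Enpp2 and Npl (27.3%), measured 11.2 and 14.7 CPM. Different clusters made up the class in each library, with those led by Retnla and Lyve1 and by Hal and Ccl8 largest in WT_Ctrl (30.4% and 29.4%) and those led by Ccl8 and Cd209d and by Ednrb and Lyve1 largest in WT_UV (26.4% and 19.1%), and a cluster found mostly in 1 library may mark that library.

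**Figure D2:**
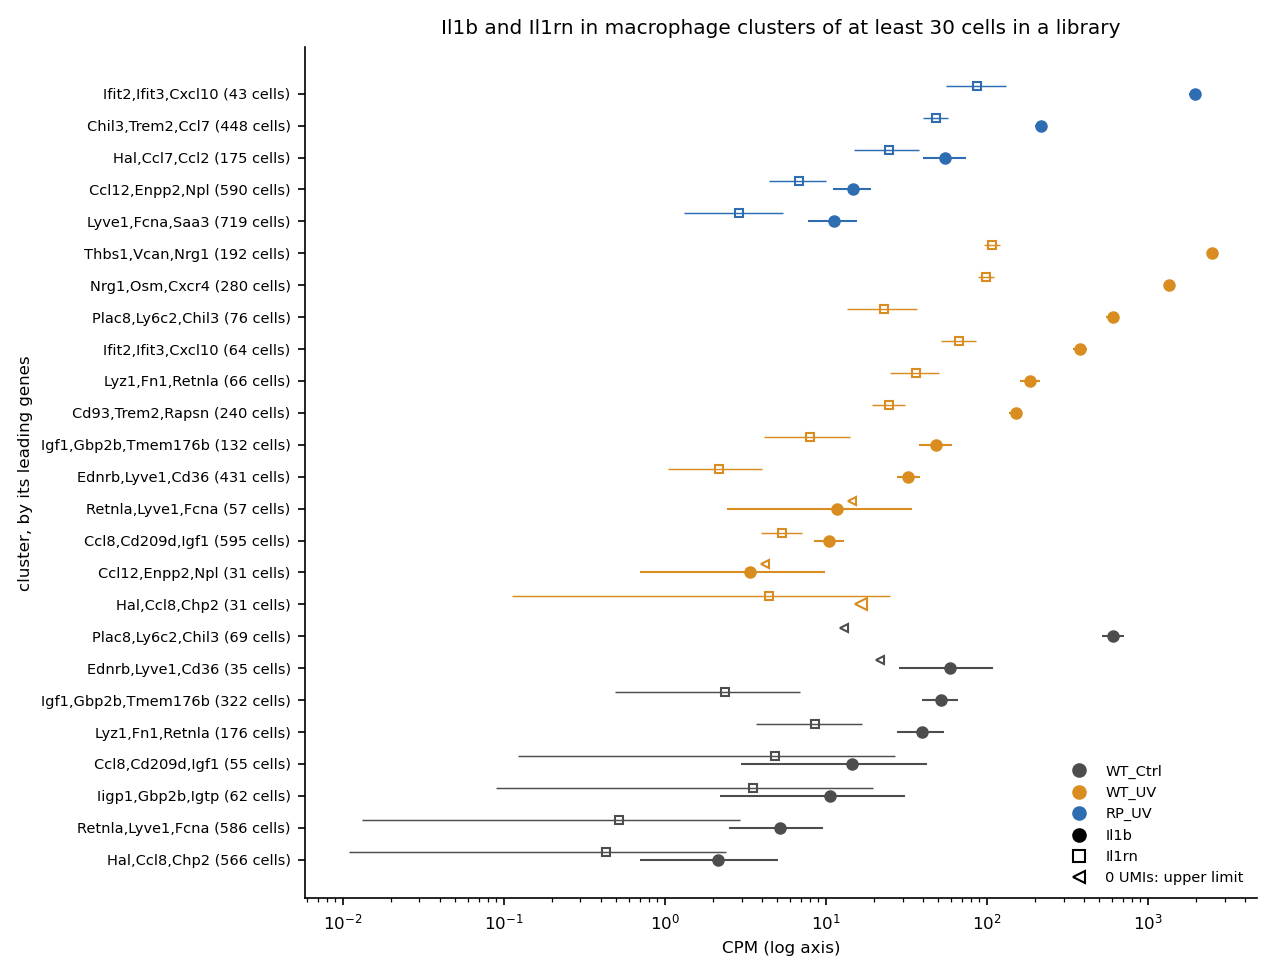
Il1b (filled circles) and Il1rn (open squares) in macrophage clusters with at least 30 cells in a library, in CPM on a log axis, one line per cluster and library, named by leading genes; bars are exact Poisson 95% intervals and triangles the upper limit where a gene had 0 UMIs. The clusters led by Thbs1 and Nrg1 in WT_UV (2505 and 1346 CPM of Il1b) and by Ifit2 in RP_UV (1963 CPM) lie farthest right for Il1b and also have the highest Il1rn.

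Dendritic cells, which present antigen to T cells, had Il1b without irradiation. The level was 1824 CPM in WT_Ctrl (1776 to 1873), 1798 CPM in WT_UV (1768 to 1828) and 3367 CPM in RP_UV (3255 to 3482), so that WT_UV and WT_Ctrl lay within each other's intervals and RP_UV was 1.87-fold that of WT_UV (1.80 to 1.94). A cluster led by Apod, Rbp4 and Cd209e held 45.5% of the class in WT_Ctrl, whereas one led by Pgf, Ffar2 and Ccl17 held 52.8% in WT_UV and 77.4% in RP_UV. Within that last cluster Il1b measured 1899.8 CPM in WT_UV and 3845 CPM in RP_UV, and within the one led by Ear2, Slc27a3 and Ehf it measured 2419 CPM in WT_Ctrl, 2288 CPM in WT_UV and 2375 CPM in RP_UV. Cells led by Xcr1, the marker of cross-presenting dendritic cells, had little: 12.8 CPM in WT_Ctrl and 7.81 CPM in WT_UV.

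Langerhans cells, the antigen-presenting cells of the epidermis, had most Il1b in RP_UV. It was found in 6 of 69 cells of WT_Ctrl, 30 of 78 of WT_UV and 38 of 49 of RP_UV, with levels of 96.5 CPM in WT_Ctrl (66.0 to 136), 295 CPM in WT_UV (265 to 327) and 2851 CPM in RP_UV (2671 to 3039). RP_UV was 9.68-fold as high as WT_UV (8.56 to 10.96). The difference was present within a cluster led by Mfge8, H2-M2 and Cd207, at 274 CPM in WT_UV and 1909 CPM in RP_UV, and within a cycling one led by Hist1h2ap and Pclaf, at 486 and 3322 CPM. The cycling cluster held 12.8% of the class in WT_UV and 49.0% in RP_UV, and its 10 leading genes held none of the Langerhans markers. With clusters made in each library alone, the Langerhans name in RP_UV went to a cluster of 259 cells led by Mmp12, Ccl17 and Mfge8. No RP_UV cluster was then named dendritic, so that setting did not separate these classes. In WT_UV it named no Langerhans cluster, so it gave no fold of RP_UV over WT_UV. The markers of the class moved as well, with Cd207 (langerin) at 2637 CPM in WT_Ctrl, 1892 CPM in WT_UV and 798 CPM in RP_UV, Epcam at 1756, 1745 and 694 CPM, and Ltc4s at 1267, 554 and 206 CPM, and their part in the result was not tested. S100a8 and S100a9 measured 127 and 130.4 CPM in Langerhans cells of RP_UV against 15147 and 23690.2 CPM in its neutrophils. The 8 neutrophil markers together measured 398 CPM in WT_Ctrl, 116 CPM in WT_UV and 373 CPM in RP_UV. These sums came from 1 detected marker in WT_Ctrl, 4 in WT_UV and 6 in RP_UV, so they do not compare like with like. In RP_UV, 2654 CPM of Il1b remained after neutrophil RNA had been subtracted in proportion to S100a8 and S100a9.

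In other classes of RP_UV, Il1b was accompanied by neutrophil transcripts. T cells had 3514 CPM of Il1b in RP_UV against 191 CPM in WT_Ctrl and 241 CPM in WT_UV, from 26 of 115 cells. The 8 neutrophil markers summed to 2919.9 CPM in T cells of RP_UV, against 24.8 CPM in WT_Ctrl and 38.5 CPM in WT_UV, and 1599 CPM of Il1b remained after subtraction. Keratinocytes, the epithelial cells of the skin, had 4.57 CPM in WT_Ctrl, 5.40 CPM in WT_UV and 24.3 CPM in RP_UV, and the RP_UV value came from 193 UMIs in 48 of 1108 cells, 48 of them in 1 cell. Their neutrophil markers summed to 3.40 CPM in WT_Ctrl, 28.7 CPM in WT_UV and 208 CPM in RP_UV. Basal cells held 116 of the 193 Il1b UMIs of RP_UV keratinocytes. Computed over the whole class and not by layer, the subtraction left no Il1b in RP_UV keratinocytes. It assumes that all S100a8 and S100a9 UMIs came from neutrophils, which was not tested for keratinocytes. Stromal cells (fibroblasts, endothelial cells, pericytes and Schwann cells) went from 139 to 9.62 CPM in RP_UV by the same subtraction. The part of neutrophil RNA in the remaining values was not tested.

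**Figure D3:**
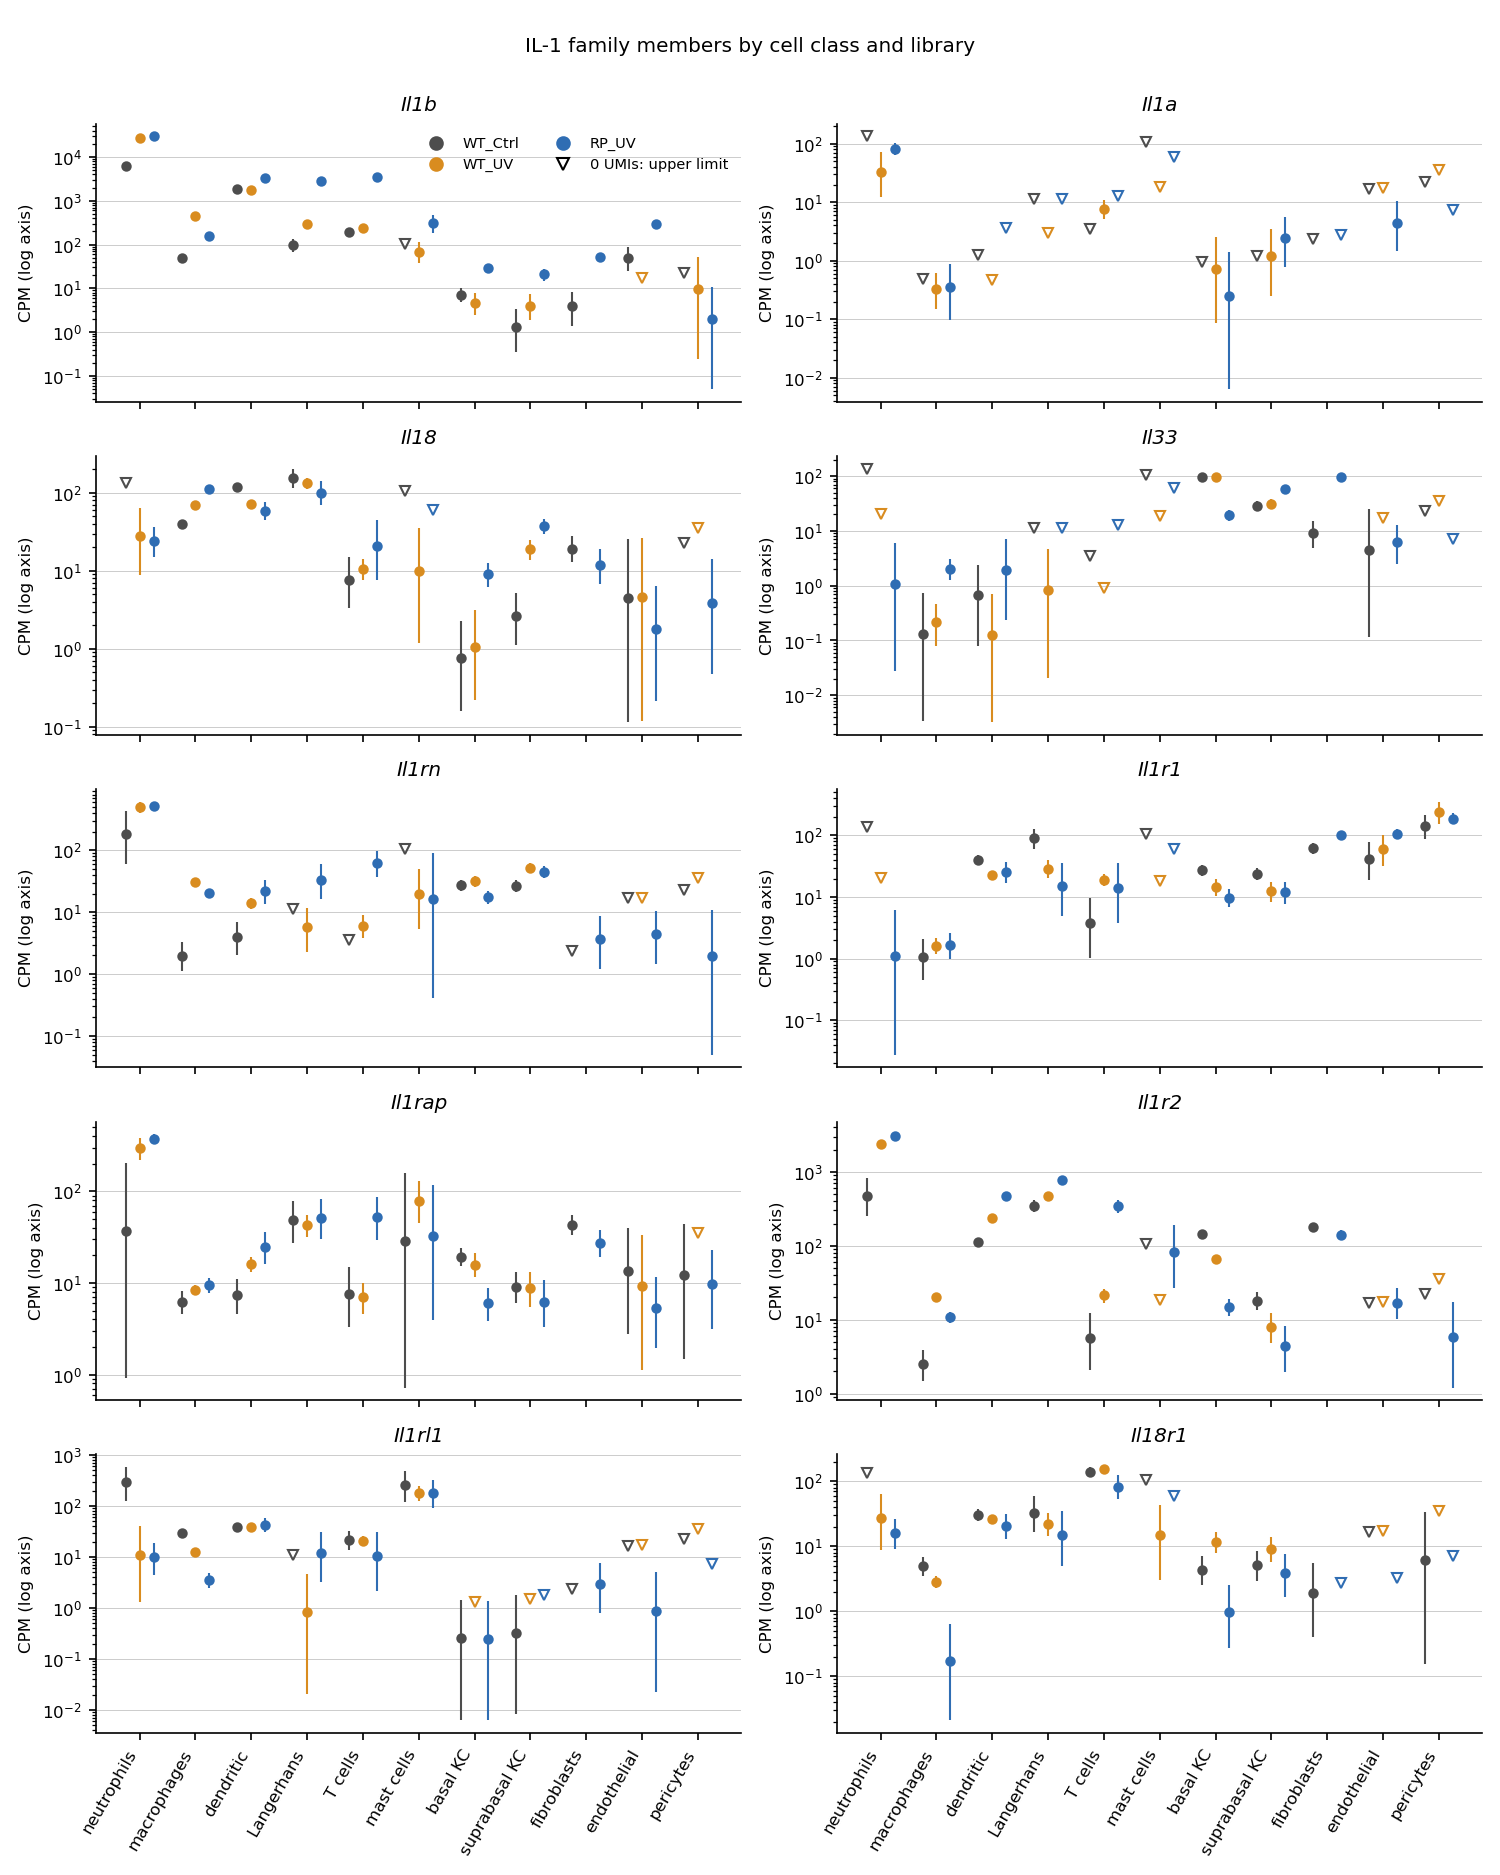
Level of each member (CPM, log axis) in 11 cell classes (KC, keratinocytes) of WT_Ctrl, WT_UV and RP_UV, with exact Poisson 95% intervals and open triangles for the upper limit where a gene had 0 UMIs; classes with under 20 cells in a library are left out. Il1b, Il1rn, Il1rap and Il1r2 were highest in neutrophils of the irradiated libraries, Il1r1 in pericytes, Il33 in basal keratinocytes and fibroblasts, and Il1rl1 in mast cells of those libraries.

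Il1a, the agonist that epithelial cells are known to store, was close to the limit of detection. It had 0 UMIs over all kept cells of WT_Ctrl, where 3 UMIs would be 0.116 CPM, 52 UMIs in WT_UV and 100 in RP_UV. Neutrophils held 75 of the RP_UV UMIs, in 31 of 571 cells, at 81.4 CPM (64.0 to 102), and 6 UMIs at 33.0 CPM (12.1 to 71.8) in WT_UV. These intervals overlap, RP_UV over WT_UV was 2.47-fold (1.08 to 6.94), and its direction turned with clusters made in each library alone. In WT_UV, 31 UMIs in T cells all came from 1 cell, and keratinocytes held 5 UMIs in WT_UV and 8 in RP_UV, too few to compare at this depth.

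Il18, made as a precursor by macrophages and epithelium, was higher in macrophages of both irradiated libraries. It measured 40.1 CPM in WT_Ctrl (35.7 to 44.8), 69.5 CPM in WT_UV (66.4 to 72.6) and 113 CPM in RP_UV (107 to 119), or 1.73-fold the WT_Ctrl level in WT_UV (1.54 to 1.96) and 2.81-fold in RP_UV (2.48 to 3.20). The cluster led by Ccl8 and Cd209d had 43.4 CPM in WT_Ctrl and 85.6 CPM in WT_UV, and the one led by Ccl12 and Enpp2 had 169 CPM in WT_UV and 136 CPM in RP_UV. Clusters with most Il1b were not those with most Il18, since the Thbs1-led cluster measured 43.1 CPM. Dendritic cells went in the other direction, with 117 CPM in WT_Ctrl, 72.1 CPM in WT_UV and 59.1 CPM in RP_UV, and Langerhans cells had 154 CPM in WT_Ctrl, 133 CPM in WT_UV and 100.1 CPM in RP_UV. In keratinocytes Il18 measured 1.83 CPM in WT_Ctrl (1.0 to 3.07), 8.34 CPM in WT_UV (6.26 to 10.9) and 22.0 CPM in RP_UV (18.9 to 25.5). Suprabasal cells, the differentiating layer, measured 2.60 CPM in WT_Ctrl, 18.8 CPM in WT_UV and 37.2 CPM in RP_UV, and hair follicle cells 4.37 CPM in WT_Ctrl, 3.50 CPM in WT_UV and 33.1 CPM in RP_UV. Few keratinocytes carried it. In WT_UV 54 UMIs came from 21 of 518 cells, 15 of them in 1 cell. In RP_UV 175 came from 86 of 1108 cells, 24 of them in 1 cell. A suprabasal cluster led by Krt16, Krt6b and Sprr1b held 0.743% of the layer in WT_Ctrl, 17.7% in WT_UV and 50.4% in RP_UV. Its part in the Il18 levels was not tested.

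Il33 was mainly a keratinocyte transcript, with 92.1% of its UMIs in WT_Ctrl, 88.8% in WT_UV and 48.2% in RP_UV in that class. Basal keratinocytes, the dividing layer, measured 96.7 CPM in WT_Ctrl (87.2 to 107), 94.9 CPM in WT_UV (83.8 to 107) and 19.2 CPM in RP_UV (15.1 to 24.0). RP_UV basal cells were 4.95 times lower than those of WT_UV (3.83 to 6.46), but different clusters made up the layer. A cluster led by Krt15, Fcgbp and Cxcl14 held 47.4% of the layer for WT_Ctrl, 11.6% for WT_UV and 0.520% for RP_UV, where basal cells spread over cycling clusters, clusters with the follicle gene Lhx2 among their leading genes and one led by the lipid genes Akr1c18 and Scd1 (8.67%). Within a cluster led by Krt5, Fcgbp and Col17a1, Il33 measured 74.4 CPM in WT_Ctrl (46.1 to 114), 109 CPM in WT_UV (83.4 to 139) and 57.4 CPM in RP_UV (28.6 to 103). Within one led by Krt5, Krt14 and Stfa3 it measured 112 CPM in WT_Ctrl (59.4 to 191), 82.9 CPM in WT_UV (53.1 to 123) and 57.0 CPM in RP_UV (37.9 to 82.4). The irradiated libraries thus differed less within these clusters than over the layer, and their intervals overlap.

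Suprabasal cells had the other order for Il33, with 28.9 CPM in WT_Ctrl (23.2 to 35.6), 31.1 CPM in WT_UV (24.6 to 38.8) and 58.0 CPM in RP_UV (48.1 to 69.3), so the value over all keratinocytes, 61.3 CPM in WT_Ctrl, 54.0 CPM in WT_UV and 25.01 CPM in RP_UV, depends on the layers that make it up. Here too the clusters differed. One led by Krt16, Krt6b and Sprr1b held 0.743% of the layer for WT_Ctrl, 17.7% for WT_UV and 50.4% for RP_UV, and within it Il33 measured 61.9 CPM in WT_UV (44.2 to 84.2) and 77.2 CPM in RP_UV (63.6 to 92.9), which overlap. Fibroblasts held 9.002 CPM in WT_Ctrl and 95.04 CPM in RP_UV, whereas WT_UV had only 6 fibroblasts. The RP_UV value came from 128 UMIs in 48 of 375 cells. Different clusters made up this class as well. One led by Slc26a7 and Crabp1 held 5 cells in WT_Ctrl and 167 in RP_UV, and one led by Igfbp3 and Crabp1 held 143 and 12. Their part in the fibroblast Il33 levels was not tested. T cells, which served as a class without the gene, had 0, 0 and 0 UMIs in WT_Ctrl, WT_UV and RP_UV.

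Among members with a mean of at least 5 CPM over both libraries compared, the antagonist Il1rn showed the largest fold over WT_Ctrl in macrophages. It measured 1.97 CPM in WT_Ctrl (1.10 to 3.25), 30.5 CPM in WT_UV (28.5 to 32.6) and 20.4 CPM in RP_UV (17.9 to 23.2), which was 15.5-fold the WT_Ctrl level in WT_UV (9.32 to 27.7) and 10.4-fold in RP_UV (6.16 to 18.8), on 15 UMIs in WT_Ctrl. The RP_UV level was 1.49 times lower than that of WT_UV (1.29 to 1.73). The clusters with most Il1b also had most Il1rn, at 108 CPM in the Thbs1-led and 99.2 CPM in the Nrg1-led cluster of WT_UV. The monocyte-like cluster led by Plac8 had 0 Il1rn UMIs in WT_Ctrl (upper limit 13.1 CPM) and 23.1 CPM in WT_UV (13.5 to 37.0), while its Il1b level lay within the counting intervals of both.

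In other leukocytes, Il1rn in neutrophils measured 501 CPM in WT_UV (403 to 615) and 514 CPM in RP_UV (468 to 562), which overlap. Dendritic cells had 4.003 CPM in WT_Ctrl, 13.9 CPM in WT_UV and 21.7 CPM in RP_UV. In Langerhans cells there were 0 UMIs in WT_Ctrl, 7 in WT_UV and 11 in RP_UV, the last of them 33.4 CPM (16.7 to 59.7).

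Keratinocytes held 71.2% of all Il1rn UMIs in WT_Ctrl, 13.6% in WT_UV and 15.8% in RP_UV, while their level differed by less than 2-fold between libraries, at 25.9 CPM in WT_Ctrl (22.4 to 29.7), 36.4 CPM in WT_UV (31.9 to 41.4) and 23.3 CPM in RP_UV (20.02 to 26.9). In WT_UV macrophages held 49.2% of the Il1rn UMIs, and in RP_UV neutrophils held 40.3%. Basal cells measured 27.3 CPM in WT_Ctrl, 31.5 CPM in WT_UV and 17.4 CPM in RP_UV. Suprabasal cells were higher after UVB, at 26.3 CPM in WT_Ctrl (20.9 to 32.7), 52.3 CPM in WT_UV (43.7 to 62.0) and 44.9 CPM in RP_UV (36.3 to 55.0).

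Agonist and antagonist were set against each other as the ratio of Il1a plus Il1b UMIs to Il1rn UMIs, which compares transcripts within a library and needs no scaling to its depth. Over all named immune cells the ratio was 172 (125 to 243) in WT_Ctrl, against 29.98 (28.2 to 31.9) in WT_UV and 45.4 (42.3 to 48.9) in RP_UV. Named immune cells of both irradiated libraries thus had more antagonist for each agonist transcript than those of WT_Ctrl. Over all kept cells this did not hold for RP_UV, since the ratio was 32.7 (29.0 to 36.9) in WT_Ctrl, against 26.9 (25.7 to 28.3) in WT_UV and 37.7 (35.6 to 40.0) in RP_UV. The intervals of WT_Ctrl and RP_UV overlap. In the unnamed cells the ratio was 59.7 (44.0 to 83.1) in WT_Ctrl, 34.6 (31.2 to 38.4) in WT_UV and 41.9 (36.6 to 48.2) in RP_UV. Among named immune cells the WT_Ctrl value rests on 38 Il1rn UMIs, and dendritic cells held 5467 of the 6523 agonist UMIs. The order of the irradiated libraries among named immune cells turned when neutrophils were left out, an alternative chosen after seeing the data: the log2 difference of RP_UV over WT_UV went from 0.60 to -0.14. In macrophages the ratio was 24.7 (14.8 to 44.6) in WT_Ctrl, against 14.6 (13.6 to 15.7) in WT_UV and 7.79 (6.80 to 8.97) in RP_UV. Neutrophils had 55.2 (44.9 to 68.7) in WT_UV and, in RP_UV, 57.7 (52.7 to 63.4), while the 20 of WT_Ctrl had 34.8 (14.6 to 109), on 5 Il1rn UMIs, a lower value with a wide interval. Dendritic cells had 456 (261 to 882) in WT_Ctrl, against 129.7 (107 to 158) in WT_UV and 155 (102 to 248) in RP_UV. Keratinocytes were the class with more antagonist than agonist, at 0.177 in WT_Ctrl and 0.169 in WT_UV. Their RP_UV value was 1.09, in a class that also carried neutrophil transcripts there.

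**Figure D4:**
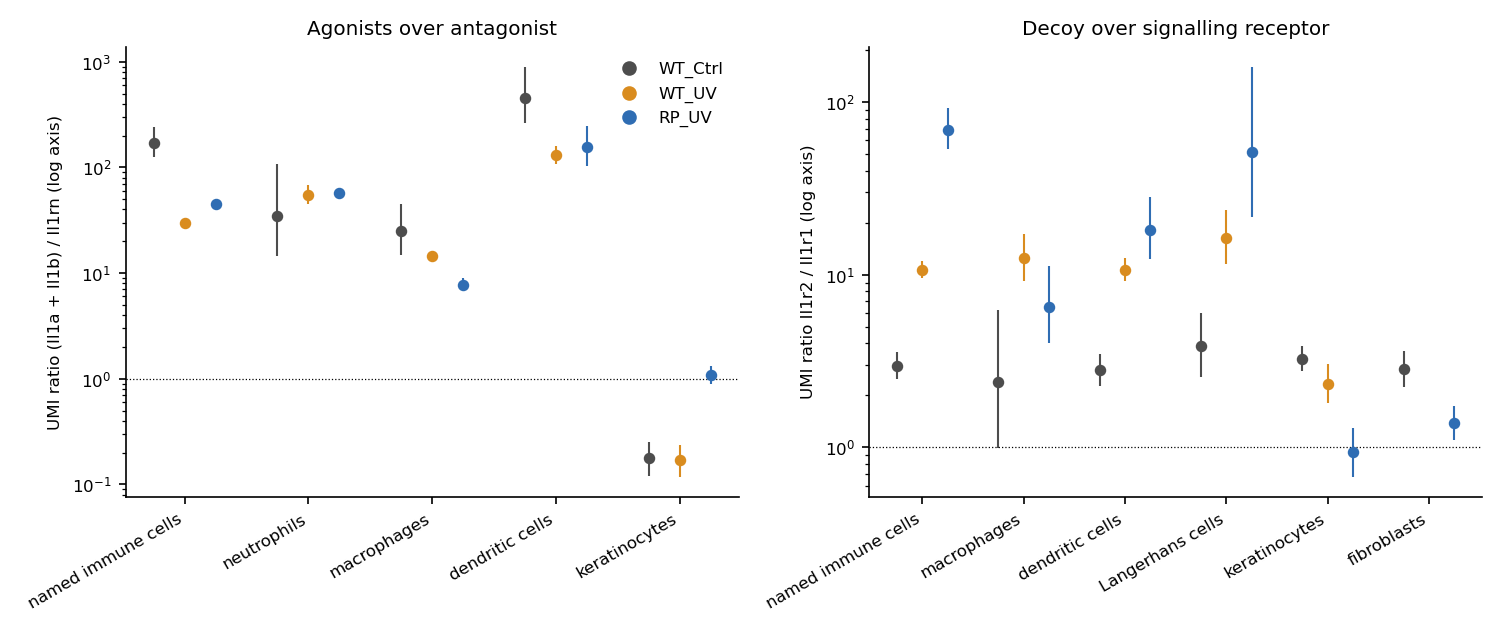
Left, UMI ratio of Il1a plus Il1b to Il1rn, and right, of Il1r2 to Il1r1, per cell class in WT_Ctrl, WT_UV and RP_UV, on log axes, with exact conditional 95% intervals; the dotted line marks a ratio of 1. Named immune cells lie at 172, 29.98 and 45.4 on the left and at 2.97, 10.6 and 69.2 on the right. For the last value, neutrophils held 2848 of the 3808 Il1r2 UMIs.

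The signalling receptor Il1r1 was low in neutrophils and macrophages, while its level was highest in pericytes. Keratinocytes held most of its UMIs among named classes in WT_Ctrl (34.2%), dendritic cells in WT_UV (26.3%) and fibroblasts in RP_UV (24.6%). Pericytes, the contractile cells of small vessels, measured 140.5 CPM in WT_Ctrl (89.1 to 211), 239.6 CPM in WT_UV (155 to 354) and 188 CPM in RP_UV (152 to 229), fibroblasts 62.4 CPM in WT_Ctrl and 102 CPM in RP_UV, and endothelial cells 40.8 CPM in WT_Ctrl, 60.6 CPM in WT_UV and 105 CPM in RP_UV. Pericyte intervals overlap between all libraries. Macrophages had 1.05 CPM in WT_Ctrl, 1.61 CPM in WT_UV and 1.66 CPM in RP_UV, and neutrophils 0, 0 and 1 UMIs. Il1r1 in Langerhans cells measured 90.5 CPM in WT_Ctrl (61.1 to 129), 28.7 CPM in WT_UV (20.004 to 39.9) and 15.2 CPM in RP_UV (4.92 to 35.4), and in dendritic cells 40.4 CPM in WT_Ctrl, 22.5 CPM in WT_UV and 25.6 CPM in RP_UV. In keratinocytes it measured 24.6 CPM in WT_Ctrl (21.2 to 28.3), 13.7 CPM in WT_UV (11.04 to 16.9) and 10.1 CPM in RP_UV (7.97 to 12.51). The log2 difference of WT_UV over WT_Ctrl in Langerhans cells was -1.62, and -0.55 at 2000 UMIs per cell. Levels in WT_Ctrl were above those of both irradiated libraries in Langerhans cells, dendritic cells and keratinocytes, with 1.79 times lower values in WT_UV keratinocytes (1.38 to 2.33) and 2.44 times lower ones in RP_UV (1.87 to 3.21).

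The accessory chain Il1rap was highest in neutrophils, at 297 CPM in WT_UV (223 to 388) and 378 CPM in RP_UV (339 to 419.7). These cells thus had the shared chain with almost no Il1r1. Dendritic cells measured 7.34 CPM in WT_Ctrl, 16.0 CPM in WT_UV and 24.6 CPM in RP_UV, macrophages 6.17 CPM in WT_Ctrl, 8.40 CPM in WT_UV and 9.43 CPM in RP_UV, and keratinocytes 15.0 CPM in WT_Ctrl, 11.4 CPM in WT_UV and 5.53 CPM in RP_UV. Basal keratinocytes of RP_UV, at 5.98 CPM (3.83 to 8.89), were lower than those of WT_Ctrl, at 19.3 CPM (15.2 to 24.2).

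The decoy receptor Il1r2 differed between classes and libraries more than Il1r1. In neutrophils it measured 2355 CPM in WT_UV (2137 to 2589) and 3092 CPM in RP_UV (2979 to 3208), or 1.31-fold as much in RP_UV (1.19 to 1.46). Dendritic cells had 113 CPM in WT_Ctrl (102 to 126), 239.9 CPM in WT_UV (229 to 251) and 466 CPM in RP_UV (425 to 510.1), and Langerhans cells 349.9 CPM in WT_Ctrl (289 to 419.7), 468 CPM in WT_UV (430.1 to 508) and 773 CPM in RP_UV (681 to 874). Both classes were highest in RP_UV and lowest in WT_Ctrl, but different clusters made them up in each library. The dendritic cluster led by Pgf, Ffar2 and Ccl17 held 3 of 490 cells in WT_Ctrl, 52.8% of the class in WT_UV and 77.4% in RP_UV. The cycling Langerhans cluster held 12.8% of its class in WT_UV and 49.0% in RP_UV. The part of these clusters in the Il1r2 levels was not tested. After subtraction of neutrophil RNA, 463 CPM remained in dendritic cells of RP_UV and 753 CPM in its Langerhans cells. Macrophages had 2.50 CPM in WT_Ctrl (1.503 to 3.90), 20.02 CPM in WT_UV (18.4 to 21.8) and 10.8 CPM in RP_UV (9.004 to 12.9), which puts WT_UV highest there, although the log2 difference of RP_UV over WT_UV was 0.12 without the Thbs1-led cluster. Fibroblasts measured 177 CPM in WT_Ctrl and 141 CPM in RP_UV.

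Keratinocytes showed the opposite order. Il1r2 measured 80.1 CPM in WT_Ctrl (73.9 to 86.7), 32.0 CPM in WT_UV (27.8 to 36.6) and 9.43 CPM in RP_UV (7.41 to 11.8), and in basal cells 143 CPM in WT_Ctrl (132 to 156), 65.8 CPM in WT_UV (56.7 to 76.0) and 14.7 CPM in RP_UV (11.2 to 19.0). Basal cells of WT_UV were 2.18 times lower than those of WT_Ctrl (1.84 to 2.58), and those of RP_UV 4.48 times lower than those of WT_UV (3.33 to 6.11). As for Il33, these cells lay in different clusters in each library. Of the basal clusters, 4 had more follicle than basal markers among their 10 leading genes, and Il1r2 measured at most 3.96 CPM in them wherever a library had enough cells for a value. Without these 4, a choice made after seeing the data, the levels were 187 CPM in WT_Ctrl, 105 CPM in WT_UV and 21.3 CPM in RP_UV, or 1.79 times lower in WT_UV than in WT_Ctrl (1.51 to 2.12), which is below 2-fold, and 4.91 times lower in RP_UV than in WT_UV (3.63 to 6.73). Within the cluster led by Krt5, Fcgbp and Col17a1, Il1r2 measured 195 CPM in WT_Ctrl (147 to 254), 105 CPM in WT_UV (80.3 to 135) and 52.2 CPM in RP_UV (25.01 to 95.9). Within the one led by Krt5, Krt14 and Stfa3 it measured 283 CPM in WT_Ctrl (195 to 398), 121 CPM in WT_UV (84.2 to 168) and 71.3 CPM in RP_UV (49.7 to 99.2). Both clusters had the order of the whole layer, but the WT_UV and RP_UV intervals overlap in each. Within them the irradiated libraries differed less than over the layer. The Krt15-led cluster, the largest of WT_Ctrl, had overlapping intervals at 224 CPM in WT_Ctrl (204 to 246) and 203 CPM in WT_UV (159 to 256). Suprabasal cells had the same order at lower levels, with 18.2 CPM in WT_Ctrl, 7.98 CPM in WT_UV and 4.35 CPM in RP_UV. The neutrophil subtraction left 13.3 CPM in RP_UV basal cells and 65.8 CPM in WT_UV ones. Keratinocytes held 40.3% of all Il1r2 UMIs in WT_Ctrl, 3.92% in WT_UV and 1.49% in RP_UV, whereas neutrophils held 0.855%, 8.11% and 56.7%. The ratio of Il1r2 to Il1r1 UMIs in keratinocytes was 3.26 (2.76 to 3.86) in WT_Ctrl, against 2.33 (1.81 to 3.02) in WT_UV and 0.938 (0.675 to 1.301) in RP_UV. In named immune cells the ratio went up instead, from 2.97 (2.49 to 3.56) to 10.6 (9.51 to 11.9) and 69.2 (53.1 to 92.1), and in dendritic cells from 2.81 to 10.7 and 18.2. Neutrophils held 2848 of the 3808 Il1r2 UMIs of named immune cells in RP_UV and 1 of the 55 Il1r1 UMIs. In WT_UV they held 428 of 3543 and 0 of 333. Langerhans cells had ratios of 3.87, 16.3 and 51.0. Macrophages had 2.38, 12.4 (9.18 to 17.3) and 6.53 (4.01 to 11.2), so RP_UV was not above WT_UV there.

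**Figure D5:**
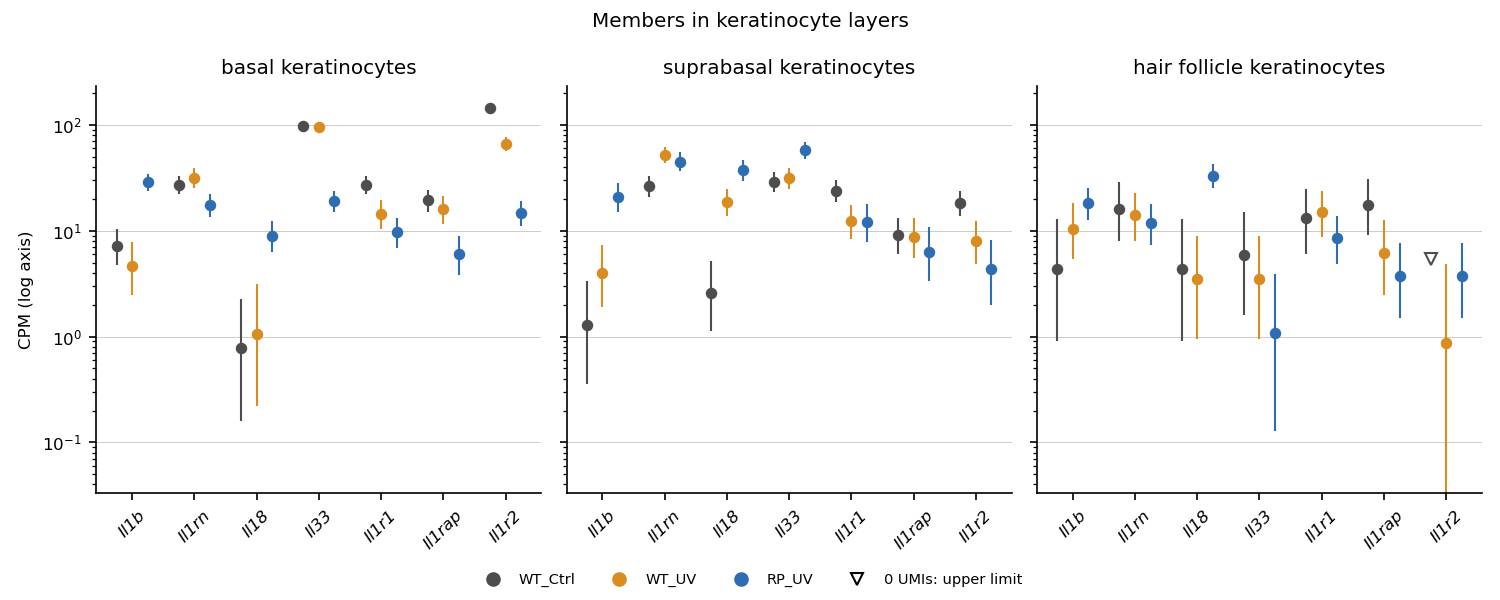
Levels (CPM, log axis) of 7 members in basal, suprabasal and hair follicle keratinocytes of WT_Ctrl, WT_UV and RP_UV, with exact Poisson 95% intervals and a triangle for the upper limit where a gene had 0 UMIs. Basal Il1r2 goes from 143 to 65.8 and 14.7 CPM, suprabasal Il18 from 2.60 to 18.8 and 37.2 CPM, and Il33 is lowest in RP_UV among basal cells and highest there among suprabasal cells, in layers made up of different clusters in each library.

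Il1rl1, the receptor for the alarm signal Il33, was lower in macrophages of both irradiated libraries. It measured 28.9 CPM in WT_Ctrl (25.2 to 33.0), 12.3 CPM in WT_UV (11 to 13.6) and 3.49 CPM in RP_UV (2.49 to 4.76), or 2.36 times lower in WT_UV than in WT_Ctrl (1.98 to 2.80) and 3.51 times lower in RP_UV than in WT_UV (2.53 to 5.003). The first of these was below 2-fold under 5 alternatives, at -0.61 to -0.96 on the log2 scale. Mast cells, the classical bearers of ST2, had 257 CPM in WT_Ctrl (117 to 487), 178 CPM in WT_UV (125 to 247) and 179 CPM in RP_UV (89.5 to 321), with overlapping intervals. Dendritic cells had 39.4 CPM in WT_Ctrl, 38.4 CPM in WT_UV and 42.4 CPM in RP_UV. Keratinocytes, taken as a class without the gene, had 2, 0 and 1 UMIs. A lymphocyte cluster led by Il13 and Icos, unnamed under the marker rule, measured 98.5 CPM in 31 cells of WT_Ctrl (47.2 to 181) and 15.6 CPM in 158 cells of WT_UV (9.25 to 24.7), and had 5 cells in RP_UV.

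Il18r1, the ligand-binding chain for interleukin-18, was found most in T cells among named classes, although they held a minority of its UMIs, at 33.3% in WT_Ctrl, 33.9% in WT_UV and 20.2% in RP_UV. Dendritic cells held 20.7%, 11.5% and 17.6%, and the unnamed cells 20.7%, 40.5% and 19.3%. By level, T cells measured 139 CPM in WT_Ctrl (118 to 164), 153 CPM in WT_UV (141 to 166) and 83.4 CPM in RP_UV (53.5 to 124), and the Il13-led cluster 207 CPM in WT_Ctrl and 284 CPM in WT_UV. The highest level was that of the basophils of WT_UV, at 452 CPM (309 to 638) in 12 cells, of which 11 had a UMI. The RP_UV T cell value lay below that of WT_UV by 1.83 times (1.22 to 2.89), in a class that also carried neutrophil transcripts there. In keratinocytes Il18r1 measured 5.75 CPM in WT_Ctrl (4.18 to 7.72), 12.8 CPM in WT_UV (10.2 to 15.9) and 2.64 CPM in RP_UV (1.63 to 4.03), and in macrophages 4.99 CPM in WT_Ctrl (3.53 to 6.85), 2.86 CPM in WT_UV (2.27 to 3.56) and 0.175 CPM in RP_UV (0.0211 to 0.631), on 38, 80 and 2 UMIs, which put RP_UV 28.6 times lower than WT_Ctrl (7.39 to 245).

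Counts over the family were read against all genes, with a gene called when log2(CPM + 1) differed by at least 2-fold and counted when its mean over both libraries was at least 5 CPM. In macrophages 6 of the 10 members were counted for WT_UV over WT_Ctrl, and 3 were called higher (Il1rn, Il1b and Il1r2) and 1 lower (Il1rl1), beside 3.12% and 1.03% of all genes counted. Their median log2 fold was 1.68 against 0.04 over all genes. For RP_UV over WT_UV in macrophages 0 of 6 were called higher and 2 lower (Il1rl1 and Il1b), beside 1.37% and 3.57% of all genes, with a median of -0.69 against -0.03. RP_UV over WT_Ctrl, which shared a flow cell but differed in irradiation and genotype, gave 4 higher (Il1rn, Il1r2, Il1b and Il18) and 1 lower (Il1rl1) of 6, beside 4.05% and 4.19%. These comparisons share libraries and are no independent support for each other.

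In keratinocytes 2 of 7 counted members were called higher in WT_UV than in WT_Ctrl (Il18 and Il18r1) and 1 lower (Il1r2), beside 2.23% and 1.53% of all genes. With the limit of 4000 genes per cell applied to WT_UV as to the other libraries, 0 members were called: Il1r2 measured -0.94 and Il18r1 0.80 on the log2 scale, and Il18, at 1.34, no longer had a mean of 5 CPM. At 2000 UMIs per cell Il18 measured 0.53 and Il18r1 0.28. For RP_UV over WT_UV 2 of 8 were called higher (Il1b and Il18) and 3 lower (Il18r1, Il1r2 and Il33), beside 4.42% and 3.28%. Of these, Il1b was higher where the neutrophil markers were higher too, and Il33 turned in the suprabasal layer. For RP_UV over WT_Ctrl 2 of 7 were called higher (Il18 and Il1b) and 4 lower (Il1r2, Il1rap, Il33 and Il1r1), beside 6.66% and 7.44%. In dendritic cells 3 of 8 were called higher in WT_UV than in WT_Ctrl (Il1rn, Il1r2 and Il1rap) and 0 lower, beside 3.75% and 1.92% of all genes, and 0 of 8 higher and 0 lower for RP_UV over WT_UV, beside 3.68% and 4.28%. Neutrophils of RP_UV over WT_UV gave 1 of 8 higher (Il1a) and 0 lower, beside 12.7% and 15.7%.

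Genes that work with the family were followed as 4 lists. Of the targets and feedback genes of interleukin-1 signalling, 9 of 15 counted were higher and 0 lower in WT_UV macrophages than in WT_Ctrl ones, beside 3.12% and 1.03% of all genes, with a median log2 fold of 1.20 against 0.04 over all genes. Ptgs2 measured 7.49 CPM in WT_Ctrl and 108 CPM in WT_UV, the acute-phase gene Saa3 0.525 and 9.98 CPM, and the neutrophil attractant Cxcl2 83.9 and 496 CPM. In RP_UV over WT_UV, 3 of 15 were higher and 0 lower, beside 1.37% and 3.57%, with Saa3 at 214 CPM, Cxcl1 at 76.4 CPM against 25.9 CPM, and Cxcl2 at 1048 CPM. Il1b was lower in those macrophages while these attractants were higher. The Il1b difference was below 2-fold with classes from marker UMIs and with every cluster named by its best panel.

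Of the genes for processing and release, 1 of 11 was higher in WT_UV macrophages and 0 lower, beside 3.12% and 1.03% of all genes. It was the inflammasome sensor Nlrp3, at 9.33 CPM in WT_Ctrl, 35.9 CPM in WT_UV and 15.8 CPM in RP_UV, and it was the 1 gene of 11 lower in RP_UV than in WT_UV, beside 3.57% of all genes. Counts of 1 are read as no result about these lists. Adaptors and kinases had 0 higher and 0 lower of 14 in WT_UV over WT_Ctrl, and 1 lower of 14 in RP_UV over WT_UV, the kinase gene Irak2 (16.0 and 5.41 CPM). Of the interleukin-36 genes and other relatives, 1 of 2 counted was higher in WT_UV macrophages, the receptor gene Il1rl2 (3.02 and 8.90 CPM).

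In keratinocytes 0 of 11 targets were higher and 0 lower in WT_UV than in WT_Ctrl, beside 2.23% and 1.53% of all genes. In RP_UV over WT_UV, 5 of 15 were higher and 3 lower, beside 4.42% and 3.28%. Without Ptgs2, which the RP genotype overexpresses, these were 4 and 3 of 14. Largest were Ptgs2 itself (5.71 and 587 CPM), the iron-binding defence gene Lcn2 (4.79 and 134 CPM) and Saa3 (0.463 and 15.8 CPM). Lcn2 led a basal cluster with 0 cells in WT_UV and 27 in RP_UV. It was also among the leading genes of a basal cluster with 3 and 50 cells, and of a neutrophil cluster. The 8 neutrophil markers summed to 28.7 CPM in keratinocytes of WT_UV and 208 CPM in those of RP_UV. The part of cluster make-up and of neutrophil RNA in the Lcn2 levels was not tested. In dendritic cells 2 of 14 targets were higher and 1 lower in WT_UV than in WT_Ctrl, beside 3.75% and 1.92% of all genes, and 5 of 16 higher and 0 lower in RP_UV than in WT_UV (4 and 0 of 15 without Ptgs2), beside 3.68% and 4.28%, with Cxcl1 at 3.72 and 66.0 CPM.

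Over 28 combinations of library and class with at least 30 cells, the genes whose levels on the log2(CPM + 1) scale followed a member most closely were taken as a description. The points share 3 libraries and their depths. Il1b was most like Mcl1 (Pearson r = 0.92), Pim1 (0.91) and Nlrp3 (0.91), and Il1rn most like Cstb (0.82), Ptgs2 (0.82) and Arg2 (0.81). Il1r2 was most like Smim3 (0.81) and Nod2 (0.79), Il18 most like Plcg2 (0.87) and the macrophage marker Adgre1 (0.85), and Il33 most like Tfap2a (0.90) and Crabp2 (0.90). The closest genes of the others were Rufy4 for Il1a (0.89), Tspan9 for Il1r1 (0.81), H3f3b for Il1rap (0.81), Cd200r1 for Il1rl1 (0.88) and Psd4 for Il18r1 (0.85).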

How the data were processed

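Dorsal skin enriched for CD45+ cells was profiled in 3 droplet libraries, 1 per group. The deposited matrices hold counts of UMIs per gene and cell, which the authors made with Cell Ranger 6.1.1, with mm10 named in the submitters' processing notes, and no normalization was applied before deposit. Of 5977, 6149 and 7240 barcodes in WT_Ctrl, WT_UV and RP_UV, 5309, 5225 and 6070 were kept by the study's limits (mitochondrial share under 10%, over 200 genes, under 4000 genes or 6000 in WT_UV), holding 4246, 10557 and 3774 UMIs per cell at the median. No doublets were removed.

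Cells were integrated with Seurat 5.3.0 and sctransform 0.4.2 in R 4.3.3 (3000 features without the members and pathway genes, 30 dimensions, resolution 0.8). Clusters of at least 100 cells were split again with scanpy 1.11.5 and leidenalg 0.10.2 (resolution 0.5, 20 dimensions), which gave 139 clusters. They were named from 21 marker panels when a panel's score led the next by 0.5 and no other class dominated the 10 leading genes, leaving 41 unnamed. These limits were set after clusters had been seen, and Lyve1 and Ltc4s were not held against a macrophage name.

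UMIs were summed per class and library and given as CPM with exact Poisson 95% intervals. Folds and ratios carry exact conditional intervals and shares Wilson intervals (scipy 1.17.1), all for counting error only, and 3 UMIs were taken as the limit that a count of 0 allows. Log2 folds used a pseudocount of 1 CPM, which understates the change of low genes. Folds quoted as multiples are plain ratios of CPM. Depth was equalized by thinning cells to 2000 UMIs. Neutrophil RNA was subtracted by scaling the neutrophil profile of each library to the S100a8 and S100a9 UMIs of a class, which assumes that all of these came from neutrophils. The call rule was tested on simulated counts.

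All 10 members are named, with up to 3 genes per pathway list by size of log2 fold and the genes most alike by correlation. The members and lists were chosen with earlier results of these data known. With 1 library per group no test was possible. Alternatives covered the gene limit, doublets, class assignment, averaging, depth, pseudocount, the expression minimum and neutrophil RNA. Figures were drawn with matplotlib 3.10.9.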

Additional observations from a re-analysis of the deposited data

How the results depend on the processing

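No paired analysis was possible because each group has 1 library, and no replicate was left out for the same reason. Across macrophages, dendritic cells, Langerhans cells, neutrophils, T cells and keratinocytes, 56 member folds were past 2-fold. Of their 593 values under the alternatives, 583 had the same direction and 511 were also past 2-fold. Neutrophil folds over WT_Ctrl (20 cells) were not computed, and clusters made in each library alone gave no value for dendritic, Langerhans or T cells in some comparisons.

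The log2 ratio of agonist to antagonist in named immune cells went from -2.52 to -1.82 for WT_UV over WT_Ctrl with CPM averaged over cells. For RP_UV over WT_UV it went from 0.60 to 0.46 in thinned cells and to -0.14 without neutrophils. For RP_UV over WT_Ctrl it went from -1.92 to -2.41 with clusters of each library alone, -1.14 with CPM averaged over cells and -2.93 without neutrophils. The neutrophil share of Il1b UMIs in RP_UV, 61.7%, was 68.4% after removal of the top 5% of cells by Scrublet score, 70.1% with classes from marker UMIs, 68.3% with clusters of each library alone, 73.2% with every cluster named by its best panel, 85.0% with CPM averaged over cells and 54.1% in thinned cells.

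Members past 2-fold in macrophages for RP_UV over WT_UV went from 2 to 1 with classes from marker UMIs, with best panels, with a pseudocount of 10 CPM and without the cluster richest in Il1b, and to 4 with no minimum CPM. In keratinocytes the count for WT_UV over WT_Ctrl went from 3 to 0 with 4000 genes as the limit in every library to 0 in basal cells without the follicle-led clusters and to 1 with the larger pseudocount. That for RP_UV over WT_UV went from 5 to 2 with classes from marker UMIs, to 3 with clusters of each library alone, to 2 with the larger pseudocount and to 2 in suprabasal cells.

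Of single folds, 9 turned direction. With classes from marker UMIs these were Il1rl1 in Langerhans cells, at -0.99 in place of 2.85 for RP_UV over WT_UV and -0.57 in place of 3.71 for RP_UV over WT_Ctrl, Il18 in T cells (-0.10 in place of 1.34, RP_UV over WT_Ctrl) and Il1b in keratinocytes (-0.17 in place of 1.98, RP_UV over WT_UV). Il33 was 0.88 in suprabasal cells in place of -1.08 in all keratinocytes for RP_UV over WT_UV, and 0.98 in place of -1.26 for RP_UV over WT_Ctrl. Il1b in keratinocytes was -2.31 in place of 2.18 for RP_UV over WT_Ctrl after the subtraction, Il1a in neutrophils -0.36 in place of 1.28 for RP_UV over WT_UV with clusters of each library alone, and Il1rl1 in T cells 0.99 in place of -1.01 in thinned cells (RP_UV over WT_Ctrl). The cause was not tested for any of these. Leaving out neutrophils, the cluster richest in Il1b clusters led by Lyve1 or Ltc4s or the follicle-led basal clusters, and the subtraction outside macrophages, were chosen after seeing the data.

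Depth limits what can be read of Il1a, and WT_Ctrl neutrophils and WT_UV fibroblasts were too few to compare. Genotype, irradiation, flow cell and animal cannot be told apart where they coincide.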
